A study of Homo sapiens with 7 samples.

Results

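The genes described here are 9 that write, read or erase cytosine methylation in DNA, chosen by name from the HCT116 expression file: the writers DNMT1, DNMT3A, DNMT3B and DNMT3L, the maintenance factor UHRF1, the reader MBD2, and the erasers TET1, TET2 and TET3. All 9 were among the 20423 genes of the table. HCT116 is an established human colon adenocarcinoma line, widely used to study the loss of DNMT1 and DNMT3B, and the labels describe its culture in McCoy medium with serum. The table comes from 1 library of polyA RNA of these cells, with no genotype change and no treatment labelled for it. The rest of the series (3 insertion libraries of the wild-type piggyBac transposase, 2 of its fusion to SP1, and 1 list of SP1 ChIP-seq peaks) is not used for these genes, because its positions are on hg18 and the gene annotation at hand is on GRCh38.

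In mammalian DNA, methyl groups are placed mainly on cytosines followed by guanine, the CpG dinucleotide. DNMT3A and DNMT3B set new marks, and DNMT1 copies marks onto the daughter strand after replication, brought there by UHRF1, which recognises hemimethylated CpG. MBD2 is one of several proteins that bind methylated CpG and recruit repressive complexes, and TET enzymes oxidise 5-methylcytosine, the first step of its active removal.

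Levels are given in RPKM (reads scaled to transcript length and to the mapped total of the library), which is per length, so that genes of this library can be set side by side. Scaling to length does not correct for reads that match several genes, and the rule used for these is not stated. Ratios between genes carry that limit. With 1 library there is no replicate error, no test and no interval, and no source at hand states the depth. Small differences between genes therefore cannot be told from noise. A rank of 1 is the highest value in the table.

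DNMT1 was the most abundant of the 9 transcripts, and the TET transcripts had the lowest values above 0; DNMT3L was listed at 0. Of the 9 genes, 7 had at least 1 RPKM, beside 57.0% of all genes, and 3 (DNMT1, UHRF1 and DNMT3B) had at least 10 RPKM, beside 24.4%. Their median was 4.54 RPKM, against 1.91 for all genes, and 6 of the 9 lay above that median. As a share of a set of 9, these counts describe the genes and set them apart from others by no test.

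**Figure D1:**
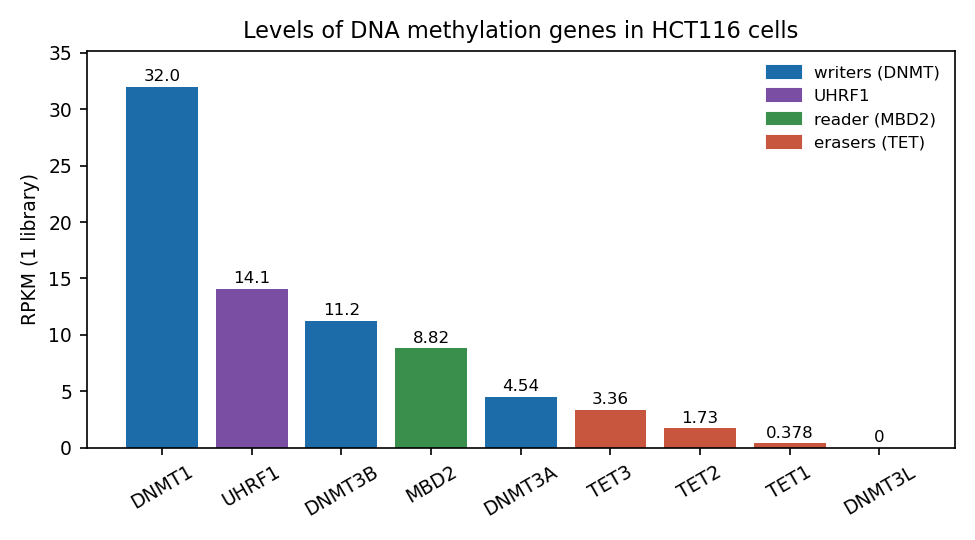
Bars give the RPKM of each of the 9 genes in the single HCT116 RNA library, coloured by role, with the value printed above each bar. DNMT1 stands at 32.0 RPKM, the TET genes between 0.378 and 3.36, and DNMT3L is listed at 0.

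Among the writers, DNMT1, the maintenance methyltransferase, stood at 32.0 RPKM and rank 1795, with 8.78% of all genes above it. DNMT3B, a de novo methyltransferase, stood at 11.2 RPKM and rank 4610. DNMT3A, the other de novo enzyme, stood at 4.54 RPKM and rank 7692, with 37.7% of all genes above it. DNMT1 thus had 2.85 times the RPKM of DNMT3B and 7.05 times that of DNMT3A, and DNMT3B had 2.47 times that of DNMT3A. On the log2(RPKM + 1) scale these differences were 1.43, 2.58 and 1.14. DNMT1 made up 67.0% of the summed RPKM of the 4 DNMT genes, DNMT3B 23.5% and DNMT3A 9.50%.

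DNMT3L, a cofactor of DNMT3A and DNMT3B without catalytic activity of its own that is known from germ cells and early embryos, was listed at 0. It shared this value with 3397 other genes, and 16.6% of the table was listed at 0. A 0 in this table is not proof of a missing transcript: YWHAZ, a 14-3-3 protein that most cells express, and 2 of 86 genes of cytoplasmic ribosomal proteins, RPL10 among them, were also listed at 0. The value of DNMT3L is therefore described only as listed at 0, and no ratio to it is given. The values are per gene, so splice forms, which for DNMT3B include forms without activity, were not resolved.

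UHRF1, which couples DNMT1 to newly replicated DNA, had 14.1 RPKM and rank 3898, the second highest value of the 9. DNMT1 exceeded it by 2.27 times, and UHRF1 and DNMT3B were close, with a ratio of 1.25. UHRF2, its paralogue, stood at 4.99 RPKM, so that UHRF1 had 2.82 times the RPKM of UHRF2. The other partners of maintenance in a list of 6 were PCNA, the replication clamp, at 66.3 RPKM, CDCA7 at 16.2, the deubiquitinase USP7 at 12.4 and the remodeller HELLS at 2.57. All 6 were at or above 1 RPKM, with a median of 13.2.

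Genes of replicating cells were abundant in the same library. All 10 genes of the proliferation list had at least 1 RPKM and 9 had at least 10, with a median of 47.2 RPKM. The replicative helicase subunits MCM2, MCM3, MCM4, MCM5, MCM6 and MCM7 ran from 16.3 (MCM6) to 119 RPKM (MCM7), and MKI67 stood at 39.5. DNMT1 and UHRF1 both lay below that median. The lowest gene of the list was TOP2A, the mitotic topoisomerase, at 7.25 RPKM.

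MBD2 stood at 8.82 RPKM and rank 5416, with 26.5% of all genes above it, between DNMT3B and DNMT3A in level. It was not the most abundant gene of its family. MBD3, a related subunit of the same remodelling complex that has little affinity for methylated CpG in mammals, had 33.4 RPKM, 3.78 times that of MBD2. MBD1 had 18.3 RPKM, 2.07 times that of MBD2. MBD4, a glycosylase that also binds methylated CpG, stood at 4.24 RPKM. MBD6 and MBD5, whose domain is not known to read methylation, are part of the family list: MBD6 stood at 30.5 RPKM, and MBD5 was listed at 0, a value read no further (as for DNMT3L).

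Of the readers of the zinc finger type, all of which lay below MBD2, ZBTB4 stood at 5.35, ZBTB38 at 4.30 and ZBTB33, also called Kaiso, at 1.06 RPKM. Of the 9 genes of the methyl-CpG binding domain family and this zinc finger group, 8 had at least 1 RPKM, with a median of 5.35. MBD2 made up 13.6% of the summed RPKM of MBD1 to MBD4, against 51.6% for MBD3.

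MBD2 and MBD3 enter, one or the other, the nucleosome remodelling and deacetylase complex (NuRD). All 11 genes of its other subunits had at least 1 RPKM and 8 had at least 10, with a median of 24.2 RPKM. The deacetylase HDAC1 was highest at 92.6 RPKM and HDAC2 stood at 11.8. The remodelling ATPases CHD4 and CHD3 stood at 31.9 and 11.7 RPKM. Of the MTA subunits, MTA1 stood at 57.6, MTA2 at 30.2 and MTA3 at 9.88 RPKM. RBBP7 and RBBP4, the histone-binding subunits, stood at 39.7 and 9.66 RPKM. GATAD2A, which bridges the MBD subunit to the ATPase, stood at 24.2 and GATAD2B, the lowest of the 11, at 5.94 RPKM.

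The 3 erasers had the lowest values above 0 of the 9 genes. TET3 stood at 3.36 RPKM and rank 8672, with 42.5% of all genes above it, and exceeded the median of all genes (1.91 RPKM). TET2 stood at 1.73 RPKM and rank 10462, slightly below the median of all genes. TET1 stood at 0.378 RPKM and rank 13184, with 64.5% of all genes above it, and TET1 alone of the 3 was under 1 RPKM. TET3 had 1.94 times the RPKM of TET2 and 8.89 times that of TET1, and TET2 had 4.58 times that of TET1. TET3 made up 61.5% of the summed RPKM of the 3 genes, TET2 31.6% and TET1 6.91%.

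No TET gene reached the level of any of the 3 writers with a value above 0, although TET3 was close to DNMT3A, which exceeded it by 1.35 times. DNMT1 had 9.51 times the RPKM of TET3. The summed RPKM of the DNMT genes was 47.7 and that of the TET genes 5.47, a ratio of 8.73. These are transcript levels and say nothing of enzyme amount or activity.

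**Figure D2:**
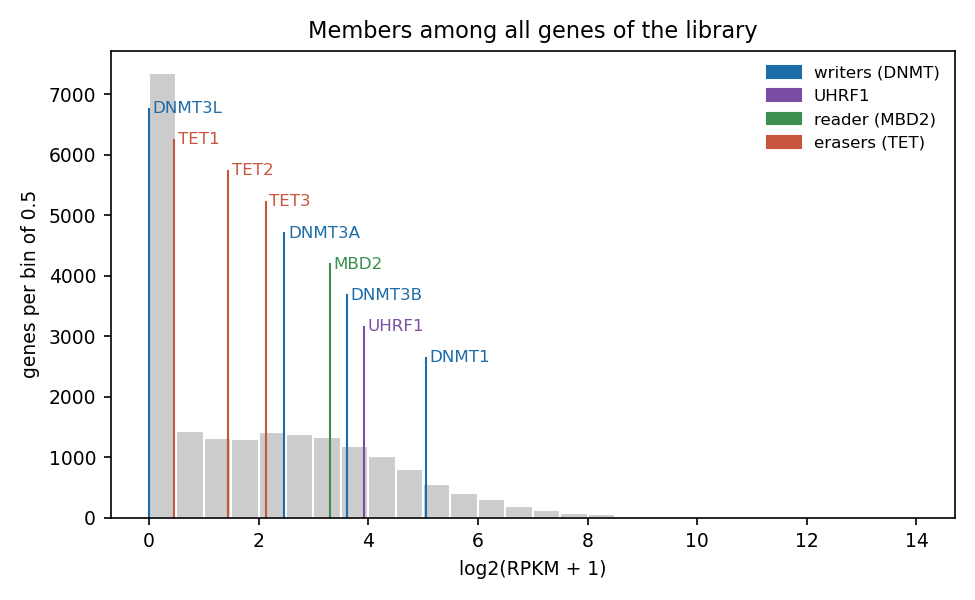
Grey bars count all 20423 genes of the library by log2(RPKM + 1) in bins of 0.5, and coloured lines mark the 9 genes at their values (line heights only separate the names). TET1 and DNMT3L lie in the lowest bin, and DNMT1, with 8.78% of all genes above it, lies in the upper tail.

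Genes that act after or beside the TET enzymes had higher values than all 3 TET genes, with the exception of TDG. TDG, the glycosylase that removes oxidised methylcytosine, stood at 3.24 RPKM, close to TET3 with a ratio of 0.964. The other repair genes ran from MBD4 at 4.24 to APEX1, the abasic site endonuclease, at 118 RPKM, and all 8 of the list had at least 1 RPKM, with a median of 12.4. TET enzymes need 2-oxoglutarate: IDH1 and IDH2, which make it in cytosol and mitochondria, stood at 17.2 and 29.0 RPKM. The list of 7 genes that holds these, not all of them suppliers, includes OGDH at 22.6 RPKM and IDH3G at 51.9. Its highest gene was IDH3B at 63.2 RPKM and its lowest IDH3A at 17.2. The list also holds OGT, a sugar transferase bound by TET proteins, at 37.4 RPKM. All 7 had at least 10 RPKM.

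Methyl groups for the DNMT enzymes come from S-adenosylmethionine. MAT2A, which makes it, stood at 150 RPKM and AHCY, which clears the product S-adenosylhomocysteine, at 229 RPKM. MAT2B, the regulatory subunit, stood at 14.7 RPKM. In the folate arm SHMT2 stood at 116 RPKM and SHMT1 at 10.8. The list also holds AHCYL1 at 28.9 and MTRR at 7.51 RPKM. Methionine synthase, MTR, was the lowest of its 8 genes at 2.55 RPKM, and the median was 21.8. All 8 had at least 1 RPKM.

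Histone modifiers and readers that accompany DNA methylation had at least 1 RPKM in 13 of 13 genes, with a median of 14.4. TRIM28, the corepressor of KRAB zinc finger proteins, was highest at 191 RPKM, and its partner methyltransferase SETDB1 stood at 14.4. EHMT2 and EHMT1, which methylate histone H3 lysine 9, stood at 21.9 and 13.5 RPKM, and SUV39H1 and SUV39H2 at 9.78 and 1.89. The H3 lysine 36 methyltransferases, whose mark is bound by DNMT3A and DNMT3B, stood at 30.2 RPKM for NSD2 (listed under its older symbol WHSC1), 6.29 for NSD1 and 6.02 for SETD2.

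**Figure D3:**
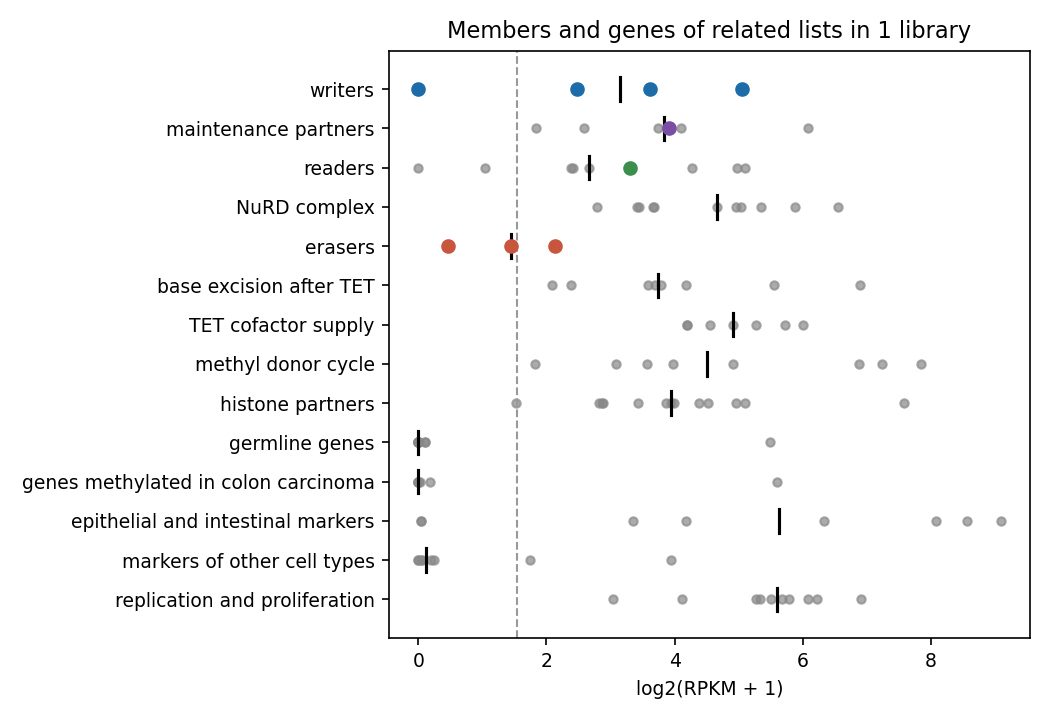
Each point is 1 gene at its log2(RPKM + 1) in the single RNA library, by list, with the 9 genes in colour; black ticks are list medians and the dashed line is the median of all genes (1.91 RPKM). Of the erasers, TET3 lies above the dashed line, TET2 slightly below it and TET1 further below. The lists from maintenance partners to methyl donor cycle, other than the readers and erasers, have medians of 12.4 RPKM or more.

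The cell line label was compared with marker genes. KRT19, KRT8, KRT18 and EPCAM, markers of simple epithelium, stood at 543, 378, 268 and 79.5 RPKM. CDH1, the epithelial cadherin, stood at 17.0 and CDX2, an intestinal transcription factor, at 9.19. CDX1 and VIL1, other intestinal markers, stood at 0.0242 and 0.0313. Of 8 markers of other cell types 6 were under 1 RPKM, with the leukocyte genes PTPRC and CD3E listed at 0. The exceptions were COL1A1 at 14.5 and DES at 2.35 RPKM, while COL1A2 stood at 0.0277. The part of these in the levels of the 9 genes was not tested.

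CpG is the dinucleotide at which methylation is mainly written, read and erased, and the CpG content of their own transcription start regions was described. RefSeq windows of 300 bases on GRCh38.p14, from 250 before to 50 after an annotated start, were at hand for 8 of the 9 genes, 19 windows in all; DNMT3L had none. Many of them overlap and share a gene, so they are not independent. Which of these starts HCT116 cells use, and whether they are methylated there, was not measured. The printed windows belong to the most abundant writer, to UHRF1, and to the least and most abundant erasers, 5′ to 3′ along the gene, with each CpG in capitals.
DNMT1, chr19:10194904-10195203, minus strand: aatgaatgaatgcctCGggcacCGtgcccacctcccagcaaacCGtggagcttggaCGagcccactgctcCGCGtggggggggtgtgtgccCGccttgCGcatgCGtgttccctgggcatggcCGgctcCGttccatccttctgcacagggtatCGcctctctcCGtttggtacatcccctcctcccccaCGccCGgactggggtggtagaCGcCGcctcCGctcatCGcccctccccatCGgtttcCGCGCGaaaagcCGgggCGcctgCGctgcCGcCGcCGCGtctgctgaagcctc
UHRF1, chr19:4909894-4910193, plus strand: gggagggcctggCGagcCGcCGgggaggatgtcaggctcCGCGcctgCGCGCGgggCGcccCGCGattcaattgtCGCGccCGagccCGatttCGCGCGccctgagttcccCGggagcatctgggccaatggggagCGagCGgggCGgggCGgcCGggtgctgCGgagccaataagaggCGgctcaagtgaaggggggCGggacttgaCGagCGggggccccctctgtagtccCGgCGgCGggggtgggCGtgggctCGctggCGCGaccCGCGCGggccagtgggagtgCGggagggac
TET1, chr10:68560087-68560386, plus strand: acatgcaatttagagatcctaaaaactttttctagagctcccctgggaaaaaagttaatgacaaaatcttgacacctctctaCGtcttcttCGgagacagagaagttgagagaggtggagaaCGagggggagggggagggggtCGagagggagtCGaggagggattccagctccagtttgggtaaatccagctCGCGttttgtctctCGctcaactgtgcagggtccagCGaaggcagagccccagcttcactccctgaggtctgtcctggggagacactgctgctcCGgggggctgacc
TET3, chr2:73984660-73984959, plus strand: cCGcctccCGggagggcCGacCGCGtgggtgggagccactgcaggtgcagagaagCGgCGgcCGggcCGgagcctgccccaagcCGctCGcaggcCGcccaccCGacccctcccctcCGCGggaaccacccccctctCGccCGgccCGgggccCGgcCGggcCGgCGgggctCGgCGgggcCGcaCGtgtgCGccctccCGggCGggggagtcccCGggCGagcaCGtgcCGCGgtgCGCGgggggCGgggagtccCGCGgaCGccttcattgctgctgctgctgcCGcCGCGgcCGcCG

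The windows differ in CpG. The DNMT1 window held 30 CpG, with 68.3% G + C and an observed to expected CpG ratio of 0.874 (the CpG count over that expected from the window's C and G). The printed UHRF1 window held 40 CpG with a ratio of 0.970, and that of TET3 45 with a ratio of 0.878. The TET1 window held 10, with 54.3% G + C and a ratio of 0.463. Windows of all genes, here and below, are those of 27303 RefSeq genes, and held a median of 14 CpG with a median ratio of 0.579. This is not the gene set of the expression table. Of its 20423 genes, 12633 (61.9%) had a window under the same symbol.

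A window was called CpG-rich at a ratio of at least 0.6 and at least 50% G + C. Of the 19 windows 12 (63.2%) were CpG-rich, beside 46.9% of 35114 windows of all genes. All windows of DNMT1, UHRF1, MBD2 and TET3 were, as were 4 of 6 of DNMT3A and 1 of 2 of TET2. None of the 3 windows of TET1 was, with ratios of 0.309 to 0.480. The single DNMT3B window held 3 CpG with a ratio of 0.118.

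Many windows, CpG-rich and CpG-poor, belong to internal starts and are no measure of the outermost start that RefSeq annotates for the gene. The DNMT3B window lies 17467 bases into the gene. The UHRF1 windows lie 6421, 7064 (the printed one) and 7287 bases into it, and those of TET3 1279 (the printed one) and 19061 bases. DNMT3A has 3 windows between 90275 and 90459 bases into the gene and 3 within 665 bases of its outermost start. The printed windows of TET1 and DNMT1, and that of MBD2, lie at the outermost start, while the other TET1 windows lie 39931 and 40137 bases in. For TET2 the window at the outermost start was not CpG-rich, and the one 1001 bases in was.

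SP1, the factor mapped in this series, is known to bind GC boxes. The letters GGGCGG were searched on both strands, with overlapping matches counted. They occurred in 12 of the 19 windows (63.2%), beside 45.0% of windows of all genes. TET2 had 5 matches in its CpG-rich window and 1 in the other, the UHRF1 windows 2 to 3, MBD2 3, the TET3 windows 1 and 3, and 4 of 6 DNMT3A windows 2 to 4. The windows of DNMT1, DNMT3B and TET1 held no match. The longer letters GGGGCGGGG, which contain GGGCGG, occurred in 4 of the 19 windows (21.1%), 1 each of DNMT3A, UHRF1, TET2 and TET3, beside 15.7% of all windows. A match is a string of letters and not a bound site. The 3 genes without a match, DNMT1, DNMT3B and TET1, stood at 32.0, 11.2 and 0.378 RPKM. A link between matches and RPKM was not tested.

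**Figure D4:**
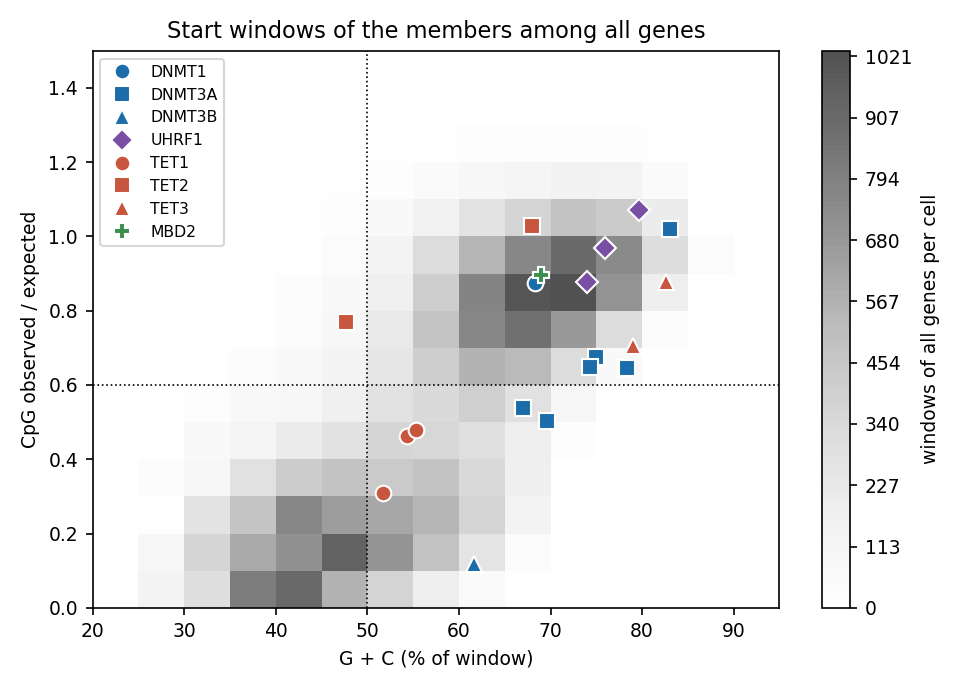
Each coloured mark is 1 start window of 8 genes, by its G + C content and its observed to expected CpG ratio; grey shading counts the 35114 windows of all genes, and dotted lines mark the limits of 50% and 0.6. The 3 windows of TET1, the 1 of DNMT3B and 2 of DNMT3A lie under the dotted line at 0.6, and all 3 of UHRF1 lie above it.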

How the data were processed

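Expression was measured by RNA-seq in 1 polyA library of HCT116 cells. RPKM per RefSeq gene were deposited by the authors; per the deposited readme, TopHat placed the reads on hg18 and Cufflinks gave the values. The submitters' processing notes name Cufflinks 1.1.0. No source at hand states the library's strandedness, its depth or the rule for reads that match several genes, so reads of overlapping genes and near-identical copies cannot be told apart. The table has 20423 lines and as many symbols, and each value was used as deposited.

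Ranks, ratios of RPKM, and log2 ratios with a pseudocount of 1 were computed (Python 3.11.15). No test was run, since there is 1 library. The 9 genes and the lists beside them were chosen with earlier results of these data known. Every one of the 9 is named; of the partner lists genes are named with values, and of the other lists (markers, germline and colon carcinoma genes) the highest and lowest, with further genes named after their values were seen. List symbols were matched through older symbols, with 1 of them found that way. Likeness of pattern over samples cannot be computed from 1 library. Start windows are from RefSeq (GRCh38.p14); the rank, CpG and motif functions were tested on simulated data. Insertions and peaks were not used, since no hg18 annotation was at hand, and protein identities were not computed. Some genes of the lists are not reported here and were left out of their counts and medians.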

Additional observations from a re-analysis of the deposited data

How the results depend on the processing

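Ranked among genes above 0 only, the share of genes above each gene rose to 10.5% for DNMT1, 22.9% for UHRF1, 27.1% for DNMT3B, 31.8% for MBD2, 45.2% for DNMT3A, 50.9% for TET3, 61.4% for TET2 and 77.4% for TET1, since fewer genes were ranked; the share of genes at or above 1 RPKM then became 68.4%. At 5 RPKM 4 of the 9 genes passed, beside 36.0% of all genes. Without the 1 RPKM pseudocount the log2 ratios of TET2 and TET3 over TET1 were 2.19 and 3.15, and with 0.1 they were 1.94 and 2.86, against 0.99 and 1.66 with a pseudocount of 1; this choice shrinks ratios to a gene as low as TET1. The other 28 of 32 recomputed ratios moved by less than 1.5 times, and none changed direction. With the letters GGGGCGGGG in place of GGGCGG, 4 windows held a match. A threshold of 0.5 RPKM left 7 of the 9 genes at or above it, and one of 1 after rescaling the values to a common sum, as in TPM, left 8. The share of all genes at these lower cut-offs was not computed, so these counts cannot be set against it. No gene symbol stood in several lines, so that choice had no alternative to run; alignment of proteins and counts of peaks and insertions at the genes were not run. No paired analysis was possible because the values come from 1 RNA library and from no test. Counting error cannot be given without the depth and the transcript lengths used.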

Other observations

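Germline genes known for methylated promoters in somatic cells mostly had values under 1 RPKM in the library. For scale, 57.0% of the whole table reached 1 RPKM and 16.6% held a 0. Of the 10 germline genes 9 were under 1 RPKM and 6 were listed at 0. Among the 6 were DAZL, SYCP3 and MAEL, which act in germ cell development and meiosis. A 0 in this table carries the limit given for DNMT3L. The exception was MAGEB2, a cancer-testis gene, at 44.0 RPKM, above DNMT1. Of 9 of these genes with a RefSeq start window, 7 had at least 1 that was CpG-rich. This counts genes, some with several windows, so the 46.9% of single windows of all genes is not a like measure. The highest observed to expected ratio was 0.788 for MAGEB2, 0.862 for DAZL, 0.880 for SYCP3 and 1.12 for MAEL. DDX4, with 0.120 in its 1 window, and MAGEA4, with at most 0.584 in 5 windows, had no CpG-rich window and were also listed at 0. Methylation at these starts was not measured.

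Of 9 genes known for promoter methylation in colon carcinoma, 7 had a value. Of these 7, 6 were under 1 RPKM, with SFRP1, GATA4, TIMP3 and INHA listed at 0. The whole table again gives the scale, with 57.0% reaching 1 RPKM and 16.6% holding a 0. The limit given for DNMT3L holds for these zeros too. SFRP5 and SFRP4, secreted WNT antagonists, stood at 0.137 and 0.0144 RPKM. The exception was CDKN2A, which encodes the cell cycle inhibitor p16 and, in another frame, ARF, at 47.4 RPKM. This value is per gene, so transcripts for p16 and for ARF were not told apart. Methylation of these promoters was not measured, and its part in the values was not tested.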
